A study of Mus musculus with 6 samples.

Results

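The genes described here are 35 enzymes and transporters of glycolysis and glycogen metabolism, taken by gene symbol from a table of 40428 features. They cover 16 steps, from glucose uptake through hexokinase, phosphofructokinase and pyruvate kinase to lactate dehydrogenase, together with glycogen phosphorylase, glycogen synthesis and fructose bisphosphatase. RNA came from subcutaneous white adipose tissue (WAT) of 3 ANKO mice and 3 flox/flox control mice, all on the C57BL/6J background, fed regular chow and kept at room temperature. ANKO stands for adipocyte-specific Nampt knockout, made with adiponectin-Cre and floxed Nampt. The floxed allele is shared by both groups, and whether the controls carried Cre is not given in the sources used here, nor are age and sex. Adiponectin-Cre acts in adipocytes, so other cells of the tissue still have Nampt. The tissue is a mixture of cells, and fewer cells of a type cannot be told apart from less RNA per cell.

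Glycolysis splits glucose into pyruvate, yielding ATP and reducing NAD+ to NADH at the glyceraldehyde-3-phosphate dehydrogenase step, and lactate dehydrogenase reoxidises that NADH. Nampt makes the NAD+ precursor nicotinamide mononucleotide. Fructose 2,6-bisphosphate, made and broken down by the 4 bifunctional PFKFB enzymes, is a strong activator of phosphofructokinase. Glycogen is built by Ugp2, Gys1 and Gbe1 and taken apart by the glycogen phosphorylases. Adipocytes use glycolysis in large part to supply glycerol 3-phosphate and acetyl-CoA for fat synthesis.

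Libraries held 20419821 to 23860596 counts in ANKO mice and 19748962 to 22588171 in control mice. Nampt, the targeted gene, had 48.6, 50.2 and 47.0 CPM (TMM-scaled counts per 1000000 library counts) in ANKO mice, against 83.6, 93.0 and 87.0 CPM in control mice. The groups did not overlap, and Nampt fell by 0.85 on the log2 scale (SE 0.0776, edgeR adjusted p = 0.00416). Skeletal muscle RNA differed widely among libraries. The 19 muscle markers made up 2.29%, 0.384% and 0.0140% of counts in ANKO 1, 2 and 3, against 0.763%, 0.198% and 1.15% in control 1, 2 and 3. Adipocyte markers took 0.505% to 0.735% of counts in ANKO mice and 1.23% to 1.77% in control mice. Of 10, 3 (Cfd, Adipoq, Plin1) fell in edgeR and with limma-voom, against 5 with DESeq2, which added Lipe and Cidec. At an unadjusted p under 0.05, 7 were lower in edgeR, and the median log2 fold change was -0.78. Much of the drop in the sum lay in Cfd, with means of 1148 CPM in ANKO mice and 6970 CPM in control mice. Several other adipocyte markers overlapped between groups, but all 10 had a negative log2 fold change. Macrophage markers took 0.0969% to 0.132% of counts in ANKO mice and 0.0665% to 0.0811% in control mice, and 3 of 12 (Adgre1, Gpnmb, Trem2) rose in edgeR, against 7 with DESeq2 and 2 with limma-voom, which did not call Trem2. Of 5 brown adipocyte markers, 1 (Elovl3) rose in edgeR, from low levels of 0.175 to 0.403 CPM in control mice. Ucp1 and Cidea also lay wholly above control and Cox8b wholly below, without passing in edgeR. Of all genes, 9.19% lay wholly above and 10.2% wholly below. DESeq2 also called Cox8b lower, and limma-voom called none of the 5. Of 46 tested markers of 8 other cell types, none passed in edgeR (4 higher and 5 lower at an unadjusted p under 0.05), and DESeq2 called 2 fibroblast genes higher (Dcn, Lum). The smallest p in each of these lists belonged to Dcn, Kdr, Cd3d, Alas2, S100b, Rgs5, Krt5 and Csf3r, with edgeR adjusted p of 0.0639 to 0.670. Epithelial (mammary and skin) markers took 0.0739%, 0.0576% and 0.0504% of counts in ANKO 1, 2 and 3. In control 1, 2 and 3 they took 0.0636%, 0.120% and 0.0147%. No listed cell type marker was at 0 in all libraries. The part of these cell type shifts in the results on glycolytic genes was not tested.

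Most glycolytic and glycogen genes did not pass the test, and those that did were 2 enzymes that set the level of fructose 2,6-bisphosphate and 1 enzyme of glycogen synthesis. Pfkfb3 and Pfkfb1 fell to 0.415 and 0.349 of the control level, and Ugp2 rose to 2.56 times it. Of 34 members with enough counts to be tested, 1 rose and 2 fell at an adjusted p under 0.05 (edgeR quasi-likelihood F test, Benjamini-Hochberg over 19272 genes). That is 8.82% of the tested members, against 1.59% of all genes tested, of which 0.488% rose and 1.1% fell. At an unadjusted p under 0.05 there were 8 members higher and 3 lower in ANKO mice, or 23.5% and 8.82% of those tested, against 6.03% and 6.9% of all genes (12.9% in either direction). The ANKO values lay wholly above the control values for 9 members (26.5%) and wholly below for 3 (8.82%), against 9.19% and 10.2% of all genes. The log2 fold change was above 0 for 24 of 34 members (70.6%), against 50.1% of all genes, with a median of 0.30 for the members and 0.00 for all genes. The 24 include the muscle isoforms Pfkm, Pgam2, Eno3 and Pygm, whose standard errors were 0.958 to 1.60. With limma-voom these 4 were negative and 20 of 34 members were above 0. Leaving out 1 mouse gave member medians from 0.16 (without control 2) to 0.49 (without control 3). The remaining gene, Fbp1, a gluconeogenic fructose bisphosphatase of liver and kidney, had 6, 10 and 8 counts in ANKO mice and 0, 0 and 10 in control mice and was not tested. The number of calls depended on the tool. DESeq2 called 6 members higher (Aldoa, Gpi1, Hk3, Pfkl, Pkm, Ugp2) and 3 lower (Pfkfb1, Pfkfb3, Pygb), while it called 2.01% of all genes higher and 2.64% lower.

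**Figure D1:**
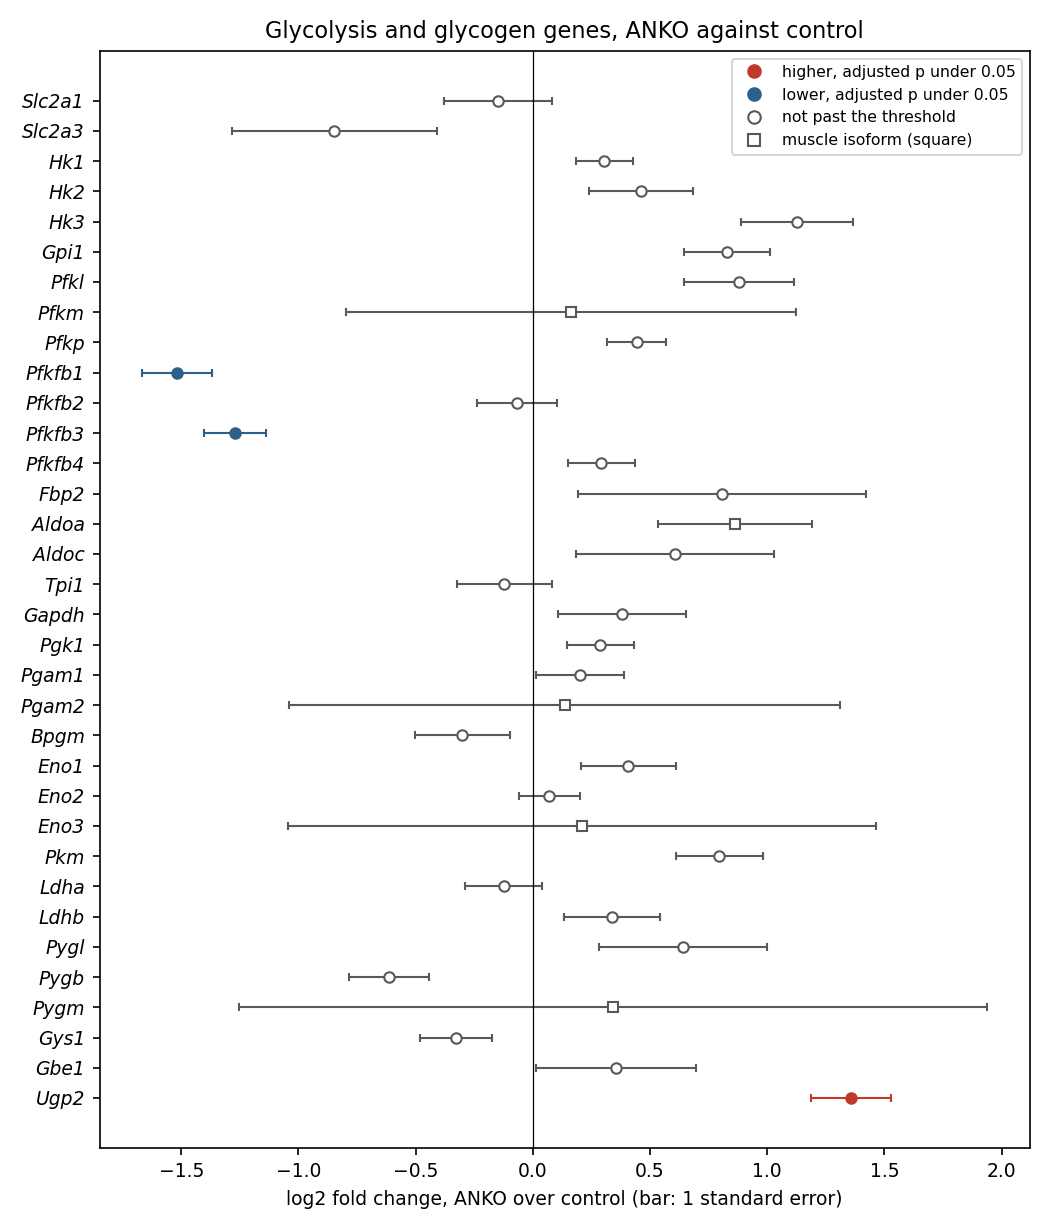
Log2 fold change of the 34 tested members, ANKO over control (x axis), in pathway order from glucose uptake at the top to glycogen synthesis at the bottom, with bars of 1 standard error. Pfkfb1 (-1.52) and Pfkfb3 (-1.27) lie on the left and Ugp2 (1.36) on the right, and the muscle isoforms drawn as squares have wide bars except Aldoa.

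Pfkfb3 is the inducible isoform, with high kinase and little phosphatase activity, and Pfkfb1 is the isoform best known from liver and muscle. Pfkfb3 lies at chr2:11471433-11554077 on the minus strand of GRCm38, Pfkfb1 at chrX:150588229-150643878 on the plus strand, and Ugp2 at chr11:21321138-21371201 on the minus strand. Promoters of these 3 genes are shown since they carry the calls. Each runs from 250 bases before to 50 after the RefSeq start (GRCm38.p6) nearest to the principal start. The windows are chr2:11502041-11502340 (minus strand), chrX:150589666-150589965 (plus strand) and chr11:21370580-21370879 (minus strand). Capitals mark the hypoxia response core, ACGTG or GCGTG on either strand, and the E-box CACGTG, which contains ACGTG on both strands.
Pfkfb3: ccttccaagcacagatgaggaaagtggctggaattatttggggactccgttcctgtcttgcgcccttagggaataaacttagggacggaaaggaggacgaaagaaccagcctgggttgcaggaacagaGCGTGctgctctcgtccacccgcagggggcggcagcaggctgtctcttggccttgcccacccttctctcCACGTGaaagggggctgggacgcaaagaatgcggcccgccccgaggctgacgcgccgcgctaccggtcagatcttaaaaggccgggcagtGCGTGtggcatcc
Pfkfb1: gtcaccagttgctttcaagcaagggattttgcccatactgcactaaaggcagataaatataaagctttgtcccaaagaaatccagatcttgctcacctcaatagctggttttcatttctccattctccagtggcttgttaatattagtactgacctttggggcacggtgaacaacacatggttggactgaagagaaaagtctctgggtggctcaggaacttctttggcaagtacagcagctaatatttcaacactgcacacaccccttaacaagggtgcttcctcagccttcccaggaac
Ugp2: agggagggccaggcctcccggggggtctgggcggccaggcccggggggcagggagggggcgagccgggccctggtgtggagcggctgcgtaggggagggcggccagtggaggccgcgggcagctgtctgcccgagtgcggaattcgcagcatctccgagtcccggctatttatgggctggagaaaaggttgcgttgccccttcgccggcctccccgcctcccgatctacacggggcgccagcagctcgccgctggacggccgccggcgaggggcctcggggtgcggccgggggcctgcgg
The Pfkfb3 window held 4 matches to the hypoxia core, counted on both strands, and 1 E-box. The Pfkfb1 and Ugp2 windows held none. Windows at other RefSeq starts of these genes held 1 core match for Pfkfb3 (chr2:11553880-11554179), 1 for Pfkfb1 (chrX:150587993-150588292) and 6 for Ugp2 (chr11:21371218-21371517), and the other Pfkfb1 windows held none. The core occurred in 43.8% and the E-box in 7.15% of 32851 promoter windows of 300 bases. Of 34 members with an entry, 21 (61.8%) held the core near their principal start and 5 (14.7%) the E-box. Aldoa was counted by its window at chr7:126800398-126800697, without the core, while an equally near window (chr7:126799205-126799504) held 1 match. Each member was counted once, while the 32851 windows also include other starts of the same gene, so these shares are not alike. A match is a description of letters and was not tested as a binding site.

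Pfkfb3 had 328, 318 and 337 CPM in ANKO mice, against 646, 827 and 899.8 CPM in control mice. The ANKO libraries lay close together and every one was below every control library. Pfkfb3 averaged 328 ± 9.48 CPM in ANKO mice and 791 ± 131 CPM in control mice (SD, n = 3 each), a log2 fold change of -1.27 (SE 0.134, edgeR adjusted p = 0.00665). Per kb of exon, its mean level ranked 12 among the members in ANKO mice and 4 in control mice.

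Pfkfb1 had 18.1, 14.7 and 18.3 CPM in ANKO mice, against 43.3, 44.2 and 58.8 CPM in control mice. The groups were again fully apart. The log2 fold change was -1.52 (SE 0.151, edgeR adjusted p = 0.00571). Both calls held in each of the 6 fits that left out 1 mouse, with adjusted p of at most 0.0296 for Pfkfb1 and 0.0423 for Pfkfb3. Summed adipocyte markers were also lower in every ANKO library, at 0.505% to 0.735% of counts in ANKO mice and 1.23% to 1.77% in control mice. Much of that drop lay in Cfd, and several of the other markers overlapped between groups. All 10 markers had a negative log2 fold change, from -2.60 for Cfd to -0.45 for Pnpla2. The part of adipocyte markers in both calls was not tested. Pfkfb1 shares 123 exon bases, 3.06% of its exon length, with Apex2 on the opposite strand. Apex2, a DNA repair endonuclease, itself had 24.3, 24.7 and 26.8 CPM in ANKO mice, against 40.5, 33.3 and 39.2 CPM in control mice (log2 fold change -0.58, edgeR adjusted p = 0.0441). The strand setting of the counting is not known, so reads of the shared stretch cannot be assigned.

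The other PFKFB isoforms did not pass the test. Pfkfb4, a hypoxia-inducible isoform also known from testis, had 23.8, 21.5 and 21.8 CPM in ANKO mice, against 19.9, 14.7 and 20.2 CPM in control mice. Its values did not overlap, with a log2 fold change of 0.29 (SE 0.143, edgeR adjusted p = 0.461). Pfkfb2, the heart isoform, stood at 15.7 to 16.9 CPM in ANKO mice and 13.0 to 20.4 CPM in control mice. Summed per kb of exon, the 4 isoforms reached 55.1, 52.3 and 55.9 CPM per kb in ANKO mice, against 103, 126 and 139.6 CPM per kb in control mice. The summed level in ANKO mice was 0.443 of that in control mice. Pfkfb3 made up most of this sum in every mouse, with 79.6 ± 0.85% in ANKO mice and 85.0 ± 2.00% in control mice (SD, n = 3 each). The Pfkfb4 share was 8.42 ± 0.42% in ANKO mice and 3.11 ± 0.79% in control mice, and the Pfkfb2 share was 4.16 ± 0.07% in ANKO mice and 2.00 ± 0.72% in control mice. Pfkfb1 made up 7.77 ± 0.66% in ANKO mice and 9.90 ± 0.99% in control mice. The 4 shares did not overlap between groups, as was so for 5 of the 23 shares compared over all steps. As parts of 1 sum, the 4 shares are not independent of each other. The level of Pfkfb2 itself overlapped, with a log2 fold change of -0.07. With 3 mice against 3, the exact two-sided permutation test cannot go below p = 0.1, and each of the 4 PFKFB shares had p = 0.1 (adjusted 0.46 over 23 shares).

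**Figure D2:**
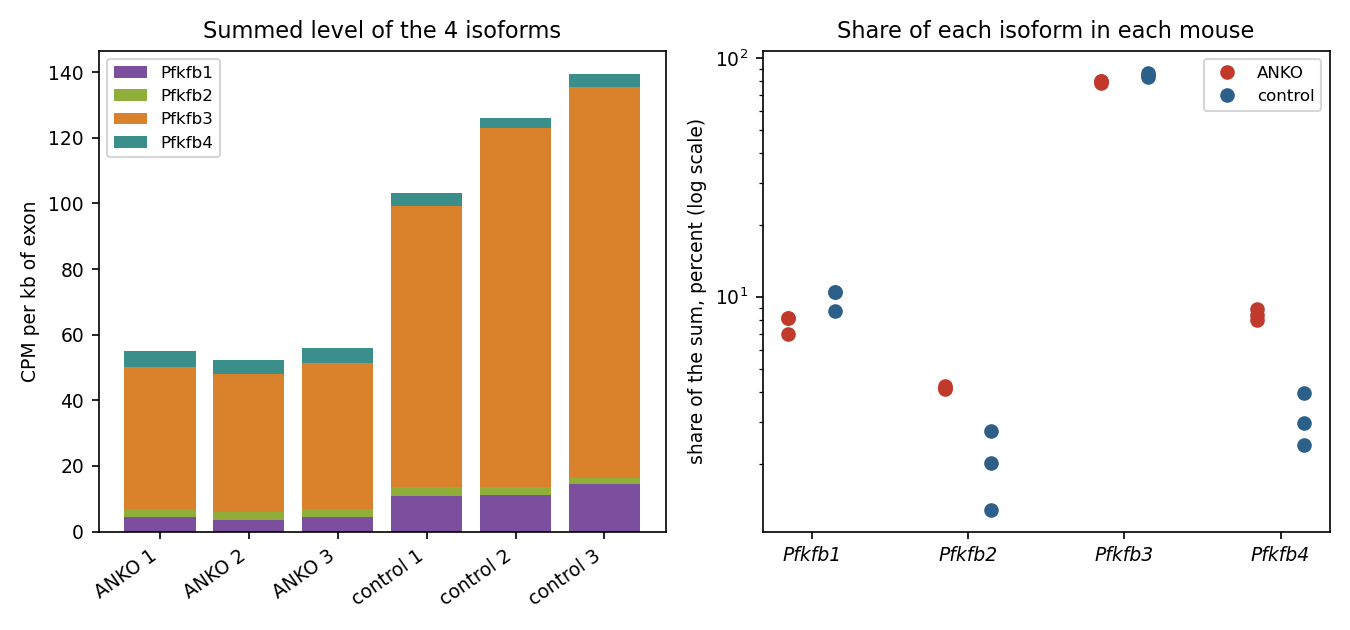
Left, summed level of the 4 PFKFB isoforms in each mouse in CPM per kb of exon, stacked by isoform. Right, share of each isoform in that sum in percent (log scale), 1 point per mouse. The ANKO sums lie between 52.3 and 55.9 and the control sums between 103 and 139.6, and Pfkfb3 is the bulk of every bar.

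Ugp2 makes UDP-glucose, the glucose donor for glycogen, glycoproteins and glycolipids. It had 129.5, 182 and 142 CPM in ANKO mice, against 58.2, 48.4 and 70.1 CPM in control mice. The lowest ANKO library was well above the highest control library. Ugp2 averaged 151 ± 27.3 CPM in ANKO mice and 58.9 ± 10.9 CPM in control mice (SD, n = 3 each), a log2 fold change of 1.36 (SE 0.172, edgeR adjusted p = 0.0134). The adjusted p was 0.0630 without ANKO 3 and 0.0512 without control 1, so the call was lost in 2 of 6 fits with 1 mouse left out. An overlapping transcript on the opposite strand, Gm12043, held 34 counts over all libraries, against 13974 for Ugp2.

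The other genes of glycogen synthesis did not pass the test. Gys1, the glycogen synthase of muscle and most other tissues, had 123, 153 and 110.3 CPM in ANKO mice, against 141, 152 and 192 CPM in control mice. These ranges overlapped, and the log2 fold change was -0.33 (SE 0.154, edgeR adjusted p = 0.436). Gbe1, the branching enzyme, stood at 89.8 to 168 CPM in ANKO mice and 61.3 to 124 CPM in control mice.

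Among the phosphorylases, Pygb, the brain isoform, had 129, 163 and 136 CPM in ANKO mice, against 171, 212 and 272 CPM in control mice. All ANKO values were below all control values, but the adjusted p was 0.166 in edgeR (log2 fold change -0.61, SE 0.173). Pygl, the liver isoform, had 263, 467 and 318 CPM in ANKO mice, against 266, 128 and 279 CPM in control mice. Its groups overlapped, with a log2 fold change of 0.64 (SE 0.360). Pygm, the muscle isoform, is given with muscle RNA further on.

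**Figure D3:**
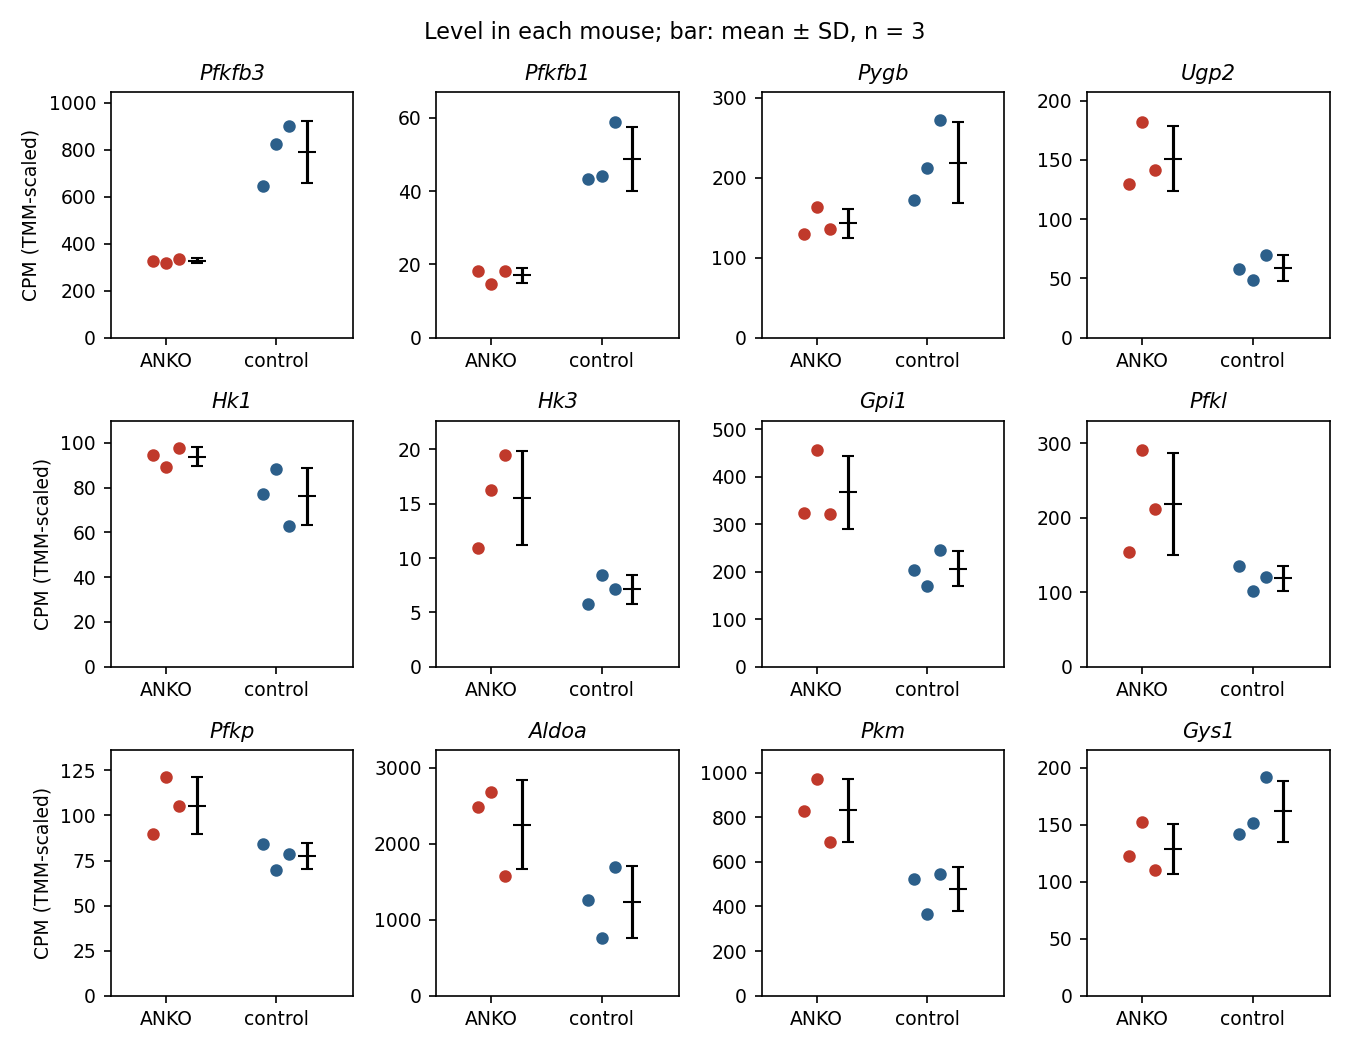
TMM-scaled CPM of 12 members in each mouse (points), with mean and SD (bars, n = 3), ANKO left and control right, each y axis starting at 0. Pfkfb3, Pfkfb1 and Pygb lie lower in all ANKO mice, Ugp2, Hk1, Hk3, Gpi1, Pfkl, Pfkp and Pkm lie higher in all ANKO mice, and Aldoa and Gys1 overlap.

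At glucose uptake, the 2 members did not pass the test. Slc2a1, the widely expressed basal transporter, had 40.0, 30.6 and 28.3 CPM in ANKO mice, against 33.9, 48.5 and 27.2 CPM in control mice. The order of the 6 libraries was that of the summed epithelial markers, whose part in these values was not tested. Slc2a3, a high-affinity transporter best known from neurons and white blood cells, averaged 13.2 ± 2.51 CPM in ANKO mice and 23.9 ± 14.8 CPM in control mice (SD, n = 3 each). Control 2 alone was at 40.9 CPM, while the other libraries lay between 10.6 and 15.7 CPM.

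Hexokinases phosphorylate glucose on entry into the cell. Hk2, the insulin-responsive isoform and the highest of the hexokinases per kb of exon, had 161, 275 and 159 CPM in ANKO mice, against 147, 129 and 156 CPM in control mice. The groups were apart by a narrow margin (log2 fold change 0.46, SE 0.223, edgeR adjusted p = 0.465). Hk1 had 94.8, 89.4 and 97.6 CPM in ANKO mice, against 77.0, 88.1 and 63.1 CPM in control mice (edgeR adjusted p = 0.342). Hk3, a hexokinase best known from myeloid blood cells, had 10.9, 16.2 and 19.5 CPM in ANKO mice, against 5.78, 8.42 and 7.16 CPM in control mice. Its log2 fold change was 1.13 (SE 0.238) and its edgeR adjusted p 0.0703. It passed without ANKO 1 (adjusted p = 0.0381, with 0.541% of all genes called higher) and with no low-count filter (0.0195, with 0.572% called higher). Macrophage markers were also higher in ANKO libraries, as given above. Hk3 shares 34 exon bases with Unc5a on the opposite strand, which had 8555 counts over all libraries against 1492 for Hk3.

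Gpi1, which turns glucose 6-phosphate into fructose 6-phosphate, had 324, 456 and 321 CPM in ANKO mice, against 204, 171 and 246 CPM in control mice. The groups did not overlap (log2 fold change 0.83, SE 0.182, edgeR adjusted p = 0.0853). A near-identical copy, Gm1840, held 2336 counts against 37955 for Gpi1, and 11.5% of Gpi1 exon bases overlap the opposite-strand Gm26762. Pfkl, the liver-type phosphofructokinase, had 154, 291 and 212 CPM in ANKO mice, against 135, 101 and 121 CPM in control mice. Its edgeR adjusted p was 0.164 (log2 fold change 0.88, SE 0.235) and 0.0396 without ANKO 1. Pfkp, the platelet type, had 89.5, 121 and 105 CPM in ANKO mice, against 84.1, 70.0 and 78.5 CPM in control mice (edgeR adjusted p = 0.162). Pfkl and Pfkp thus lay wholly above control without passing the adjusted threshold, while Pfkm, given with muscle RNA further on, overlapped.

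Aldoa, an aldolase of muscle and most other tissues, was the highest member per kb of exon, with means of 772 CPM per kb in ANKO mice and 424 CPM per kb in control mice. It had 2477, 2684 and 1580.4 CPM in ANKO mice, against 1254, 756 and 1697 CPM in control mice. ANKO 3 was below control 3, so the groups overlapped (log2 fold change 0.86, SE 0.328, edgeR adjusted p = 0.335). Pkm, the pyruvate kinase of most tissues other than liver, had 829, 971 and 691 CPM in ANKO mice, against 524, 365 and 545 CPM in control mice. It lay wholly above control, with a log2 fold change of 0.80 (SE 0.185, edgeR adjusted p = 0.0980).

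None of the remaining tested members passed the test. Gapdh, Pgk1, Pgam1, Eno1, Eno2, Ldhb, Aldoc and Fbp2 had positive log2 fold changes of 0.07 to 0.81, while Tpi1, Bpgm and Ldha had negative ones of -0.30 to -0.12. Fbp2, the muscle-type fructose bisphosphatase, had 3.24, 2.60 and 0.465 CPM in ANKO mice, against 0.963, 1.21 and 1.44 CPM in control mice. The ANKO values enclosed the control values (log2 fold change 0.81, SE 0.614). Eno1, the most widely expressed enolase, had 424, 654 and 489 CPM in ANKO mice, against 424, 305 and 452 CPM in control mice. Ldha, which favours lactate formation, had 523, 499 and 371 CPM in ANKO mice, against 532, 419 and 568 CPM in control mice. Its log2 fold change was -0.12 (SE 0.164). Gapdh, often used as a reference gene in PCR, had 873, 708 and 498 CPM in ANKO mice, against 567, 367 and 662 CPM in control mice. Gapdh has 93 near-identical copies in the annotation, whose counts came to 9.08% of its own.

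Pygm, Eno3, Pgam2 and Pfkm, the muscle isoforms, tracked the muscle RNA of each library. Pygm, the muscle phosphorylase, had 867, 159.6 and 9.99 CPM in ANKO mice, against 312, 67.6 and 438 CPM in control mice. Eno3, the muscle enolase, had 298, 63.8 and 12.7 CPM in ANKO mice, against 115, 38.7 and 170.0 CPM in control mice. ANKO 1 was the highest and ANKO 3 the lowest library for both, and the ANKO range enclosed the control range. Pgam2, the muscle phosphoglycerate mutase, had 82.4, 19.0 and 4.09 CPM in ANKO mice, against 36.2, 12.8 and 47.2 CPM in control mice. Pfkm, the muscle phosphofructokinase, had 269.5, 77.1 and 27.6 CPM in ANKO mice, against 109, 57.2 and 168 CPM in control mice. The order of the 6 libraries was that of the muscle markers for each of these 4 genes. Their fold changes of 0.14 to 0.34 on the log2 scale had standard errors of 0.958 to 1.60.

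In a model with group and the log2 summed muscle marker level, the slope per doubling of muscle RNA was 0.88 for Pygm, 0.62 for Eno3, 0.59 for Pgam2 and 0.44 for Pfkm. All 4 passed the edgeR test, with adjusted p of 8.52e-05, 0.00658, 0.00234 and 0.0184. Over all genes outside the marker list, 0.551% had a positive and 0.00519% a negative slope past the threshold. Without ANKO 1, which held the most muscle RNA, Pygm alone passed, and Pfkm was also lost without control 1 (adjusted p = 0.0687) or control 2 (0.0789). Aldoa had a slope of 0.14 (SE 0.0528, unadjusted p = 0.0369) and did not pass, and slopes of the other 29 tested members ran from -0.11 to 0.33. Among these, Tpi1 (0.10), Gapdh (0.13), Fbp2 (0.33), Ldha (0.08), Bpgm (0.10) and Hk3 (-0.11) had a smaller unadjusted p than Aldoa. Their unadjusted p ran from 0.00391 for Tpi1 to 0.0235 for Hk3 in edgeR, with adjusted p of 0.315 to 0.929. With muscle RNA in the model, the group term called the same 3 members, with adjusted p of 0.0338 for Ugp2 and 0.0209 for Pfkfb1 and Pfkfb3. In that model 0.254% of all genes rose and 0.581% fell. Aldoa then had a log2 fold change of 1.05 (SE 0.250, edgeR adjusted p = 0.155).

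**Figure D4:**
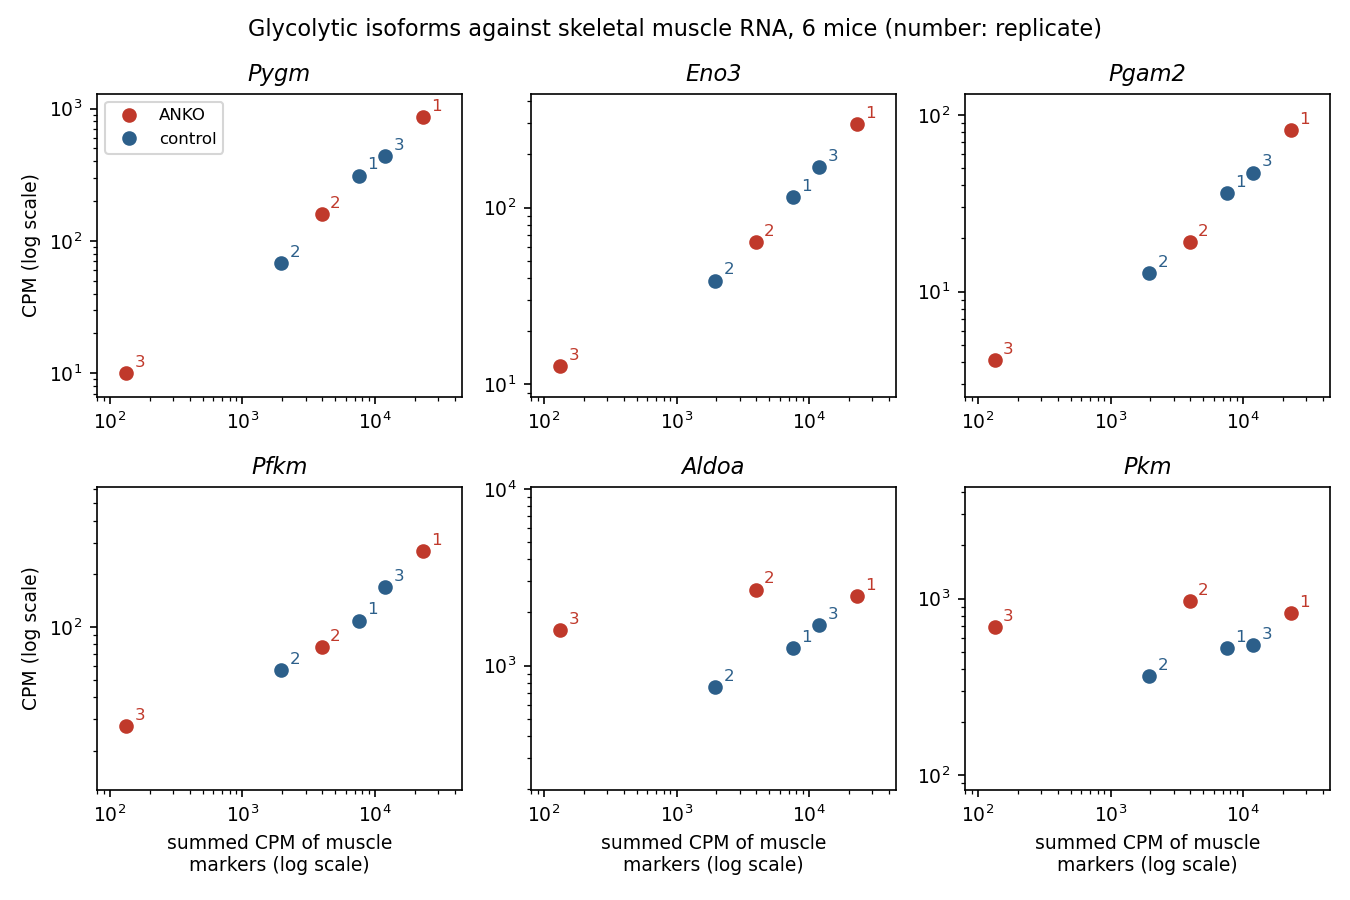
CPM of 6 members against the summed CPM of 19 muscle markers in each mouse, both on log scales, with points numbered by replicate. Pygm, Eno3, Pgam2 and Pfkm climb with muscle RNA from ANKO 3 to ANKO 1 across both groups, while all 3 ANKO points lie above the control points for Pkm and Aldoa has a shallow slope.

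Of 40 other tested genes of these pathways, none rose and 2 fell at the adjusted threshold in edgeR, with 6 higher and 4 lower at an unadjusted p under 0.05. DESeq2 called the same 2 lower and 4 higher. Phka2, a regulatory subunit of phosphorylase kinase, averaged 48.6 ± 3.47 CPM in ANKO mice and 86.9 ± 9.47 CPM in control mice (SD, n = 3 each; log2 fold change -0.84, edgeR adjusted p = 0.0107). Slc2a13, a proton-coupled myo-inositol transporter of the glucose transporter family, averaged 8.70 ± 0.709 CPM in ANKO mice and 18.5 ± 2.48 CPM in control mice (edgeR adjusted p = 0.0134). The median log2 fold change of these genes was 0.09. Slc2a4, the insulin-regulated transporter GLUT4 of fat and muscle, had 154, 257 and 168 CPM in ANKO mice, against 166, 136 and 219 CPM in control mice (log2 fold change 0.15, SE 0.248). Ppp1r3b, a subunit that brings protein phosphatase 1 to glycogen, was picked after its values were seen. It had 62.6, 119 and 56.7 CPM in ANKO mice, against 28.6, 9.88 and 15.5 CPM in control mice. Its groups were fully apart, with a log2 fold change of 2.14 (SE 0.513), but the edgeR adjusted p was 0.168, while DESeq2 called it higher.

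Of 16 tested regulators of these genes, none rose and 1 fell in edgeR and in DESeq2, with 1 higher and 2 lower at an unadjusted p under 0.05 in edgeR. Klf15, a transcription factor known to regulate Slc2a4, averaged 30.0 ± 2.73 CPM in ANKO mice and 86.3 ± 19.7 CPM in control mice (SD, n = 3 each; log2 fold change -1.53, edgeR adjusted p = 0.00837). Of 15 other hypoxia-inducible genes, 1 rose and 1 fell in edgeR, with a median log2 fold change of 0.02. Bnip3, a mitophagy receptor, averaged 39.5 ± 1.78 CPM in ANKO mice and 115 ± 25.3 CPM in control mice (log2 fold change -1.55, edgeR adjusted p = 0.00678). Ero1l, an oxidase of the endoplasmic reticulum, averaged 38.4 ± 6.83 CPM in ANKO mice and 22.0 ± 2.54 CPM in control mice (log2 fold change 0.80, edgeR adjusted p = 0.0499). The Ero1l call was lost with limma-voom, and DESeq2 called Bhlhe40 higher as well.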

How the data were processed

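RNA sequencing of subcutaneous WAT gave 1 library per mouse, 3 ANKO and 3 control, grouped by sample titles. Per the labels' protocols, RNA was extracted with Qiazol and RNeasy and depleted with Ribo-Zero Gold. The submitters' processing notes name STAR 2.0.4b, Subread, featureCounts 1.45 and build GRCm38. The sources used here give neither the annotation release nor the strand setting. The authors deposited raw read counts per gene symbol. The series design calls the samples mice, so p-values measure the spread between these mice.

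From 40757 lines, 329 exact repeats were removed. Testing used edgeR 4.0.16 under R 4.3.3 (filterByExpr with minimum count 10 and minimum total 15, TMM scaling, robust quasi-likelihood F test), with p adjusted by Benjamini-Hochberg over 19272 genes with a threshold of 0.05. SEs are log2 fold changes over the root of the F statistic, without sign. CPM are TMM-scaled. The code was tested on simulated data. DESeq2 1.42.0, limma-voom (limma 3.58.1), other scalings and filters, a replicate block, a muscle covariate and leaving out each mouse were alternatives. Exon lengths, positions and overlaps came from GENCODE M21, and isoform shares from CPM per kb of exon. Exon length is the union of exons over all annotated transcripts of a gene (4133 bases for Gapdh, 13401 for Pfkp). Levels, ranks and shares per kb therefore depend on the annotated transcripts. Copies (95% identity over at least 200 bases) came from blastn 2.17.0. Libraries of the same group differed beyond counting noise (chi-square per degree of freedom 33.7 to 82.6).

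The members, gene lists and alternatives were chosen with earlier results of these data known. Named genes are the members and Nampt, with values in every library for members at an unadjusted p under 0.05, the 5 muscle isoforms and the highest isoform per kb of each step with several, plus the called genes of each list or, with none called, the gene with the smallest p. Slc2a4, Ppp1r3b and genes called by DESeq2 alone were named beyond this rule. A gene of 1 list is not reported here.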

Additional observations from a re-analysis of the deposited data

How the results depend on the processing

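The counts of all genes higher in ANKO mice (94) and lower (212) became 364 and 477 with DESeq2, and 49 and 112 with muscle RNA as covariate. Genes higher numbered 167 with no low-count filter and 62 with the replicate block. Leaving out 1 mouse gave 20 to 107 higher and 55 to 221 lower. Members higher (1) numbered 6 with DESeq2 and 2 with no filter, where 2.01% and 0.572% of all genes rose. With 1 mouse left out they numbered 0 to 3, the 3 without ANKO 1, where 0.541% of all genes rose. The replicate block in edgeR called 0 members higher (Ugp2 adjusted p = 0.0736) and 62 of 19272 genes. It also lost Ero1l and Trem2. Over all genes, deviations of same-numbered mice had correlations of 0.0746, -0.0333 and -0.0435, against -0.0891 to 0.110 for mice of unlike number. Such correlations cannot exclude a pairing that acts on part of the genes. Members whose positive muscle slope passed the threshold (4) numbered 1 to 4 with 1 mouse left out. Pfkfb1 and Pfkfb3 were called in all 16 alternatives, with log2 fold changes of -1.60 to -1.35 and -1.40 to -1.16. The log2 fold changes of the muscle isoforms turned negative with limma-voom (Pfkm -0.28, Pgam2 -0.54, Eno3 -0.53, Pygm -0.90) and with the replicate block (-0.18, -0.33, -0.25 and -0.14). With 1 mouse left out they ran from -1.08 to 0.64 for Pfkm, -1.46 to 0.66 for Pgam2, -1.49 to 0.74 for Eno3 and -1.68 to 0.91 for Pygm. Small changes also crossed 0, from -0.31 to 0.11 for Slc2a1, -0.22 to 0.0713 for Pfkfb2, -0.30 to 0.0479 for Tpi1 and -0.24 to 0.0145 for Ldha. Without division by exon length, the ANKO minus control difference in share changed sign for Hk2 (0.0105 percentage points) and Pfkp (-1.61). The cause of these changes was not tested. Calls made up of higher genes were 30.7% in edgeR, 43.3% with DESeq2, and from 13.7% (without control 1) to 53.5% (without ANKO 1) with 1 mouse left out. With 3 mice a group, log2 fold changes had a median standard error of 0.186, and Fbp1 was left out by the low-count filter.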
